A study of Mus musculus with 12 samples.

Results

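The genes described here encode the proteins of the mitochondrial ribosome, and were taken as the rows of a read count table whose symbol starts with Mrpl or Mrps followed by a number, pseudogenes left out. There were 66 such rows of 12145, 40 named for the large subunit (Mrpl) and 26 for the small subunit (Mrps). GENCODE M21 lists 78 protein-coding symbols of this form, and 12 of them were not analysed here. RNA came from C57BL6 mouse cortical cultures prepared from E16.5-E17.5 embryos and infected on day 6 in vitro, at a total multiplicity of infection of 2, with an empty lentivirus or one carrying miR-29 (miR-29c in the labels). On day 14 the cultures went through 3 h of oxygen-glucose deprivation (OGD), which takes oxygen and glucose away as a model of ischemia, and 4 h of recovery, or had a sham rinse in normal oxygen. The groups, with 3 libraries each, were therefore OGD-empty, OGD-miR-29 and their sham counterparts sham-empty and sham-miR-29. All cells of a culture were lysed together, so fewer cells of a type and less RNA per cell cannot be told apart. For sham-empty replicate 3 the deposited column summed to 22859, had no value above 120, and was not a library of read counts. It was left out, which leaves sham-empty at n = 2 and the others at n = 3.

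The mitochondrial ribosome is the machine inside the mitochondrion that translates the few respiratory chain proteins still encoded by mitochondrial DNA. Its RNA comes from the mitochondrial genome, but every one of its proteins is encoded in the nucleus, made in the cytosol and imported. Part of the set has counterparts in the bacterial ribosome and the rest was added in the mitochondrial lineage. In neurons, which depend on oxidative phosphorylation, these proteins set the capacity to make the mitochondrially encoded subunits of the respiratory complexes. A symbol does not always give the place of the protein: Mrps18a and Mrps30 sit in the large subunit, and Mrps36 is now known as a subunit of the alpha-ketoglutarate dehydrogenase complex.

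The genes are scattered over 17 chromosomes, are short, and often share a start region with a neighbour. Their median annotated span was 7734 bp, against 23022 bp over the 11925 tested genes with a gene model. A gene on the other strand started within 1 kb of 20 of the 66 members (30.3%), against 11.6% of the 10199 protein-coding genes in the table. Promoter sequence of 300 bases, from 250 before the start to 50 after it, was found in RefSeq (GRCm38.p6) for 58 members and for 8284 genes of the table. Motifs were searched on both strands as fixed letters. The YY1 letters AAGATGGC were in 10 of 58 member promoters (17.2%) and in 4.97% of all 8284. The NRF1 letters GCGC and TGCGC with any base between them were in 11 (19.0%) and 11.1%, and the ETS letters CCGGAAG in 19 (32.8%) and 18.4%. The SP1 letters GGGCGG went the other way, at 28 members (48.3%) against 66.2% of all promoters. The YY1 matches lay at -242 (Mrpl32) and -199 (Mrps12) from the start, and in the other carriers 11 to 36 bases after it. YY1, NRF1 and the ETS factor GABP are known regulators of nuclear genes for mitochondrial proteins, and a match here is a description of letters, not of binding. 3 promoters are printed because their genes come up repeatedly below, and capitals mark the YY1, NRF1 or ETS match. Mrpl32 (chr13:14612988-14613287, minus strand, GRCm38) holds a YY1 match on the opposite strand and an NRF1 match, and its start lies 75 bp from that of Psma2, a proteasome gene. The YY1 match of Mrpl32, at -242, lies past the start of Psma2 and so inside that gene. Mrpl9 (chr3:94443086-94443385, plus strand) holds an NRF1 match and Mrps22 (chr9:98601630-98601929, minus strand) an ETS match close to the start.
Mrpl32: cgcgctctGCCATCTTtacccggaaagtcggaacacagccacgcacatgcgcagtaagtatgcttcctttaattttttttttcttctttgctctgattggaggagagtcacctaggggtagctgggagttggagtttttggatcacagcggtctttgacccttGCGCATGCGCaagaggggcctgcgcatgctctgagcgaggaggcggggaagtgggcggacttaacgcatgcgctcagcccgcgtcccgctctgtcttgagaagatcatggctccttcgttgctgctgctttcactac
Mrpl9: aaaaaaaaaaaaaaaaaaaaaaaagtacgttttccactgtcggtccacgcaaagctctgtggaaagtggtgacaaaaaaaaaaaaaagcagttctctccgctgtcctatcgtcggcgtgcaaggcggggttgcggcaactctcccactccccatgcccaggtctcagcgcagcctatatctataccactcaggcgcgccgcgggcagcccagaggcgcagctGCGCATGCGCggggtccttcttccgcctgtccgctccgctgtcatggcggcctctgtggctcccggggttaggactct
Mrps22: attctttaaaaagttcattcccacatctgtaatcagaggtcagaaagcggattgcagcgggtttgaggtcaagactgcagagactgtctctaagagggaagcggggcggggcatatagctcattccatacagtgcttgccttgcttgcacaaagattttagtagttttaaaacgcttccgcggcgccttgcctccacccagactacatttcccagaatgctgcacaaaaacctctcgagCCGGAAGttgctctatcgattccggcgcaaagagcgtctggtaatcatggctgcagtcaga

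Because the virus delivered a microRNA, the 3′ untranslated regions of the members were searched for its seed match. The mature miR-29c-3p, from RefSeq, is printed with its seed (bases 2 to 8) in capitals, followed by the first site of Mrpl11 and of Mrpl32 with the match TGGTGCT in capitals, since both genes were higher with the miR-29 virus after OGD.
miR-29c-3p: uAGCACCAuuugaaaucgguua
Mrpl11 site: aaccaaagctTGGTGCTtt
Mrpl32 site: tcttctttgtTGGTGCTtt
A seed match was present in 10 of 66 members (15.2%) and in 17.8% of 10084 genes of the table with an annotated 3′ untranslated region. The members' longest untranslated regions were shorter, with a median of 388.5 bases against 1310.5. The other carriers were Mrpl1, Mrpl35, Mrpl37, Mrpl47, Mrps14, Mrps17, Mrps35 and Mrps5.

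Depth was low and set the precision of everything that follows. Summed counts of the 11 libraries were 1337564 to 6616920, of which the 37 rows of the mitochondrial genome took 57.6% to 84.1%. The 66 members together held 715 to 4303 counts per library, with a median count per member of 7 to 36.5, and 1 count was 0 (Mrpl21 in sham-empty replicate 1). Counting intervals at such counts cover counting error only. Levels are given as CPM (counts relative to library size) scaled by TMM, and they are not divided by gene length, so they are compared between libraries and never between genes. Cell markers fixed for the check showed neurons: the 6 neuronal genes Tubb3, Map2, Rbfox3, Syt1, Snap25 and Stmn2 summed to 714 to 790 CPM in sham-empty, 684 to 885 in sham-miR-29, 938 to 1215 in OGD-empty and 584 to 701 in OGD-miR-29. Summed astrocyte markers were at 37.9 to 52.7 CPM over all groups (5 of 6 in the table), and 3 of 6 microglial markers (Aif1, Cx3cr1 and Csf1r) were at 18.8 to 28.0 in OGD-empty and at 28.1 to 40.8 in the other groups. Of 5 endothelial and 5 erythroid markers, 0 were among the rows used. The sum over neuronal markers was thus higher, and that over microglial markers lower, in every OGD-empty library than in every other library, but single markers differed. With miR-29 against empty virus after OGD (log2, edgeR as below), the long genes Map2 (-1.16), Rbfox3 (-1.75) and Syt1 (-1.82) and Snap25 (-0.63) were lower, whereas Tubb3 (0.87) was higher and Stmn2 (0.30) was not called. With the trend on gene span described below removed and a replicate block, Map2, Rbfox3 and Syt1 were at -0.08, -0.21 and -0.36, uncalled. Of the microglial markers Aif1 was higher (1.54), and Cx3cr1 (0.05) and Csf1r (0.11) were not called. The part of these cells in the results below was not tested.

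The members' median level was lowest in the OGD-empty libraries. For each gene the log2 CPM was set against its mean over the 11 libraries, and the median of these deviations over the 66 members was taken. It was 0.12 and 0.16 in sham-empty, and -0.03, -0.05 and 0.09 in sham-miR-29. The OGD-empty libraries had -0.25, -0.29 and -0.28, whereas the OGD-miR-29 libraries had 0.17, 0.28 and 0.25. The OGD-empty libraries lay below every other library and the OGD-miR-29 libraries above every other library, while the sham groups lay between them. The members did not all go the same way: 47 to 49 of 66 were below their own mean in the OGD-empty libraries, 17 to 21 in OGD-miR-29, 20 and 29 in sham-empty, and 34, 44 and 22 in sham-miR-29. The median over all genes was between -0.02 and 0.03 in each library.

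Libraries also differed in how counts depended on gene length, and this moved with the members. The median log2 deviation of the longest 25% of genes minus that of the shortest 25% was 0.52, 1.19 and 0.55 for the OGD-empty libraries but -0.38, -0.54 and -0.56 for the OGD-miR-29 libraries. In the sham groups it was -0.09 and -0.24 (sham-empty) and -0.27, 0.15 and -0.37 (sham-miR-29). The shortest genes thus had the lower median in each OGD-empty library and the higher median in each OGD-miR-29 library. With a smooth trend on gene span taken out of each library, the members' medians shrank to -0.07, -0.01 and -0.12 in OGD-empty and to 0.04, 0.16 and 0.13 in OGD-miR-29. In sham-empty they were then 0.06 and 0.10, and in sham-miR-29 -0.08, -0.04 and -0.01, so OGD-empty overlapped sham-miR-29, and OGD-miR-29 replicate 1, at 0.04, lay below both sham-empty libraries.

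**Figure D1:**
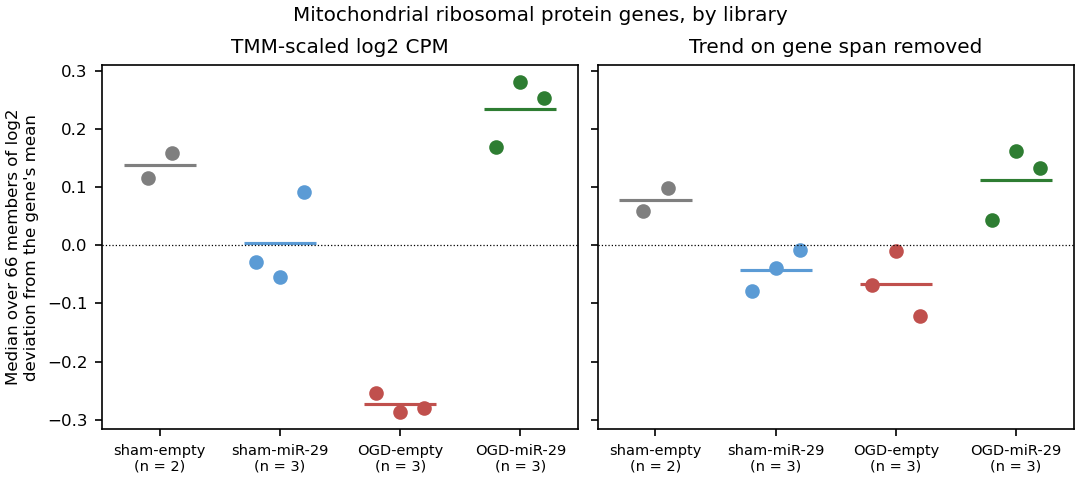
Median over the 66 members of the log2 deviation from each gene's mean over the 11 libraries (vertical axis), for the libraries of each group (points) with the group mean (lines), for scaled CPM (left) and with the per-library trend on gene span removed (right). OGD-empty lies at -0.29 to -0.25 on the left and at -0.12 to -0.01 on the right.

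In cultures that had gone through OGD, 16 of 66 members were higher with the miR-29 virus than with the empty virus and 3 were lower. These are the calls of edgeR's quasi-likelihood test, with Benjamini-Hochberg adjustment over the 12119 genes tested, at an adjusted p under 0.05. Over all genes 37.1% were called, 17.2% higher and 19.9% lower, and the members' shares were 24.2% higher and 4.55% lower. The members' median log2 fold change was 0.52 against 0.02 over all genes, and 55 values were positive and 11 negative, most of them uncalled. CPM values did not overlap between the groups for 27 members higher and 4 lower, where 25% and 25.2% of all genes did the same. Of the 40 Mrpl genes 13 were higher and 0 lower (median 0.57), and of the 26 Mrps genes 3 were higher and 3 lower (median 0.43). Members listed with a bacterial counterpart numbered 39 (median 0.57, 10 higher and 2 lower). Those listed as specific to the mitochondrial ribosome numbered 26 (median 0.46, 6 higher and 1 lower), and the difference was not tested. The second list holds Mrps18a, called higher, and Mrps18b, although their paralog Mrps18c is in the first.

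**Figure D2:**
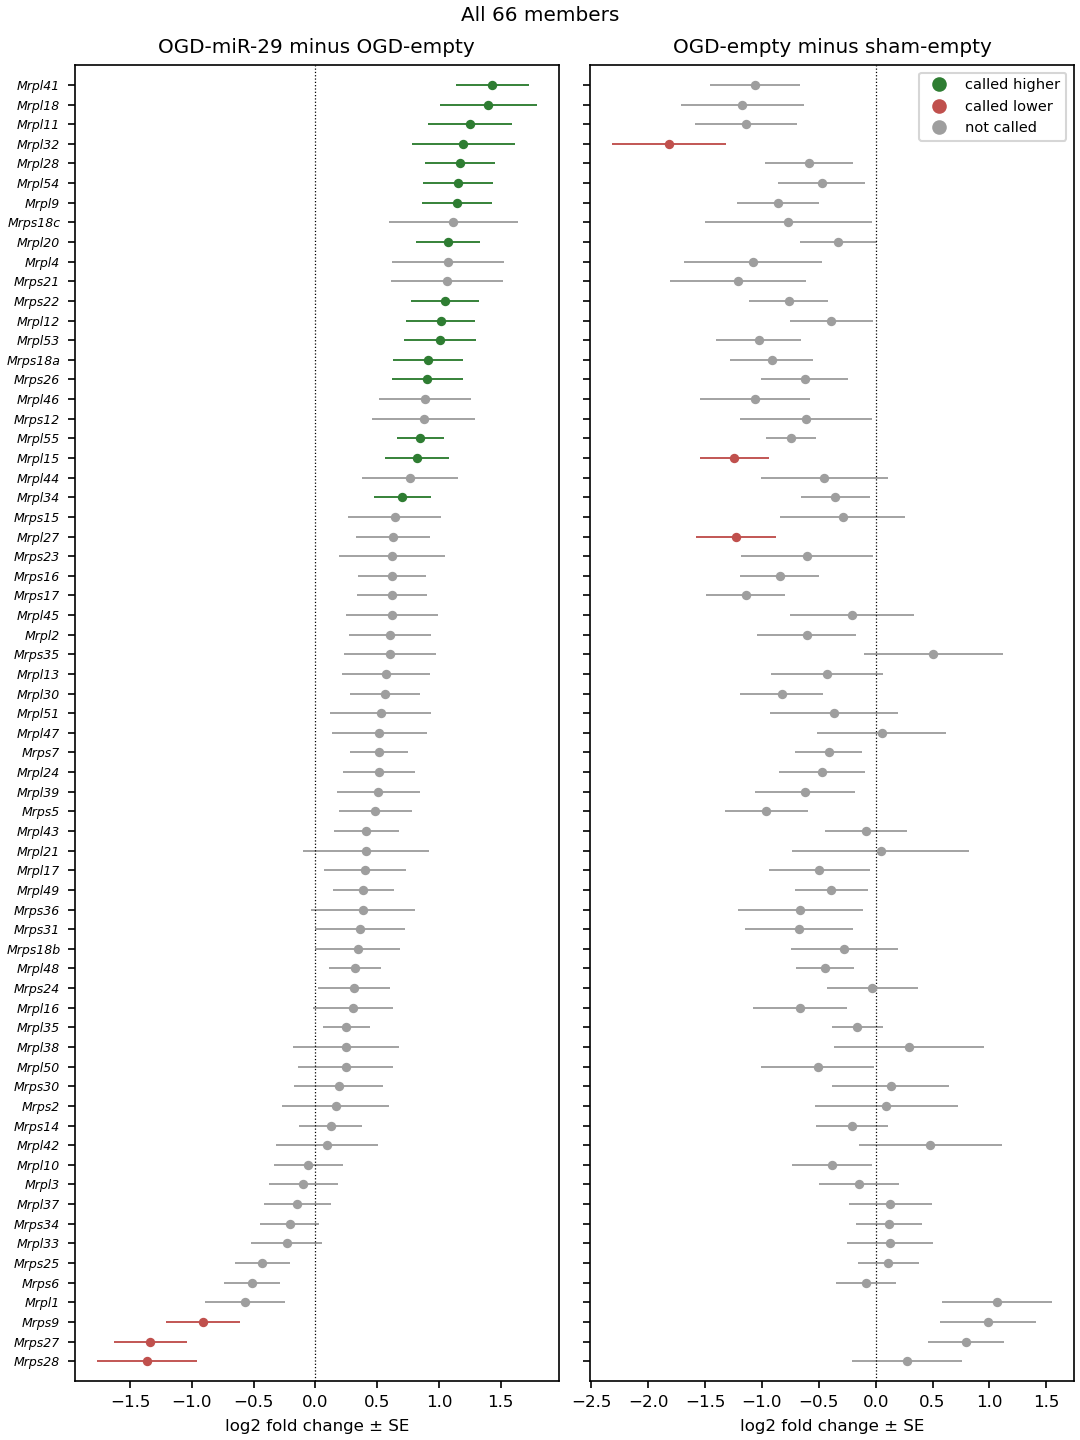
Log2 fold change ± SE (horizontal axis) of all 66 members for OGD-miR-29 minus OGD-empty (left) and OGD-empty minus sham-empty (right), in the order of the left panel; colour gives the edgeR call. Both panels use the OGD-empty libraries, so a low value there moves a gene right on the left panel and left on the right panel.

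The largest called rises were among large-subunit proteins. Mrpl41 (chr2:24974117-24975098), a protein without a bacterial counterpart, stood at 4.02, 4.97 and 3.22 CPM in OGD-empty replicates 1 to 3 and at 11.8, 11 and 10.1 in OGD-miR-29. The groups lay far apart, and sham-miR-29 (6.83, 10.4 and 9.51) lay above OGD-empty, while sham-empty was split at 4.97 and 11. The log2 fold change was 1.43 ± 0.30 (SE, adjusted p = 0.00145, edgeR). Mrpl41 remained called when any 1 of the 11 libraries was left out.

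Mrpl18 (chr17:12911349-12916345), counterpart of the bacterial protein that binds 5S rRNA, was at 2.16, 0.903 and 1.61 CPM in OGD-empty and at 4.59, 5.12 and 4.33 in OGD-miR-29. These are few reads: the counts in OGD-empty were 14, 2 and 3. Its log2 fold change was 1.4 ± 0.39 (adjusted p = 0.0092, edgeR). The neighbour Tcp1, whose counts came to 11.9 times those of Mrpl18, rose by 1.04, and reads of the pair may not be separable in these counts. Mrpl11 (chr19:4962147-4966999), at the factor-binding stalk base of the ribosome, was at 3.71, 3.16 and 1.61 CPM against 6.80, 9.06 and 6.73. Its log2 fold change was 1.25 ± 0.34 (adjusted p = 0.00756, edgeR), and GENCODE has no other gene inside it or within 10 kb downstream. Mrpl12 (chr11:120484613-120489065), the stalk protein that also binds mitochondrial RNA polymerase, was at 7.10, 9.48 and 10.7 CPM against 14.5, 17.3 and 22.1, a log2 fold change of 1.01 ± 0.28 (adjusted p = 0.00848, edgeR). The Mrpl12 call was lost without OGD-empty 1 (adjusted p = 0.0619). Its neighbour Gm11788, with 0.974 times its counts, rose by 0.93, so here too reads may not be separable. Both stalk genes had all 3 OGD-miR-29 libraries above all 3 OGD-empty libraries. Mrpl10, the stalk protein that holds Mrpl12, was not called: 6.79, 5.42 and 8.04 CPM against 6.43, 6.70 and 6.25, with overlapping groups.

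Mrpl32 (chr13:14608184-14613165) encodes a protein that must be trimmed by the inner membrane m-AAA protease before it joins the ribosome. It was at 2.78, 0.903 and 2.68 CPM in OGD-empty and at 6.06, 5.91 and 3.37 in OGD-miR-29. The lowest OGD-miR-29 library was close to the highest OGD-empty library, and the call (1.20 ± 0.42, adjusted p = 0.029, edgeR) was lost in 3 of 11 runs that left out 1 library (OGD-empty 2, OGD-miR-29 1 or OGD-miR-29 2). Mrpl28 (chr17:26123500-26126613) was at 6.49, 4.97 and 4.29 CPM against 9.92, 11.8 and 17.3, a log2 fold change of 1.17 ± 0.28 (adjusted p = 0.00382, edgeR). Like Mrpl11 and Mrpl32, it has no annotated neighbour in the window.

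Among the other proteins of the core, Mrpl9 (chr3:94443318-94451130) was at 6.33, 6.77 and 8.58 CPM in OGD-empty and at 12.3, 14.6 and 21.2 in OGD-miR-29 (1.15 ± 0.28, adjusted p = 0.00431, edgeR). Mrpl20 (chr4:155802878-155809975), an early assembly protein of the bacterial large subunit, was at 8.34, 10.8 and 9.65 CPM against 20.4, 13.4 and 26.0 (1.07 ± 0.26, adjusted p = 0.00363, edgeR). Mrpl54 (chr10:81264713-81266934), specific to the mitochondrial ribosome, was at 5.87, 8.13 and 6.43 CPM against 14, 12.2 and 18.7 (1.15 ± 0.28, adjusted p = 0.00445, edgeR). The groups did not overlap for any of these genes, and all 3 calls held in each of the 11 runs with 1 library left out. The neighbour Ccnl2, with 1.19 times the counts of Mrpl20, rose by 0.85. Matk, with 1.12 times the counts of Mrpl54, rose by 0.76. Reads of these pairs may not be separable in these counts. The small-subunit gene Mrps22 (chr9:98588730-98601660), also specific to the mitochondrial ribosome, was at 11.3, 9.03 and 9.65 CPM against 23.9, 17.3 and 21.6 (1.05 ± 0.28, adjusted p = 0.00677, edgeR). In sham-empty its libraries were at 25.9 and 11 CPM, a spread as wide as the difference after OGD. The neighbour Copb2, with 1.54 times the counts of Mrps22, rose by 0.82, and the same limit applies. The other 6 members called higher were Mrpl15, Mrpl34, Mrpl53, Mrpl55, Mrps18a and Mrps26, with log2 fold changes of 0.70 (Mrpl34) to 1.01 (Mrpl53). Of these 6, Mrpl55 kept its call in all 11 runs with a library left out. The call was lost for Mrpl53 without OGD-empty 1, for Mrps18a without OGD-miR-29 1, for Mrpl15 without OGD-empty 3 or OGD-miR-29 3, for Mrpl34 without OGD-empty 1, OGD-empty 2 or OGD-miR-29 2, and for Mrps26 without OGD-empty 1, OGD-miR-29 2 or OGD-miR-29 3.

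Members called lower were all small-subunit genes and were among the longest of the set. Mrps27 (chr13:99344786-99415562, 70.8 kb), a pentatricopeptide repeat protein, was at 175, 111 and 141 CPM in OGD-empty and at 82.9, 41.4 and 43.3 in OGD-miR-29, a log2 fold change of -1.34 ± 0.29 (adjusted p = 0.00338, edgeR). It lies beside Map1b, a neuronal microtubule gene with 2.85 times its counts and a log2 fold change of -1.44, so its counts may hold reads of Map1b. Mrps28 (chr3:8802146-8923918, 122 kb) was at 4.79, 10.8 and 3.75 CPM against 2.39, 2.76 and 1.92 (-1.37 ± 0.40, adjusted p = 0.0128, edgeR). Mrps9 (chr1:42851233-42905683, 54.5 kb) was at 8.03, 12.2 and 9.65 CPM against 4.96, 3.94 and 6.73 (-0.91 ± 0.30, adjusted p = 0.0225, edgeR). OGD-empty was the higher group without overlap for all 3 genes, but the calls of Mrps28 and Mrps9 were each lost in 2 of the 11 runs with a library left out, Mrps28 without OGD-empty 2 or OGD-miR-29 1 and Mrps9 without OGD-miR-29 1 or OGD-miR-29 2.

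**Figure D3:**
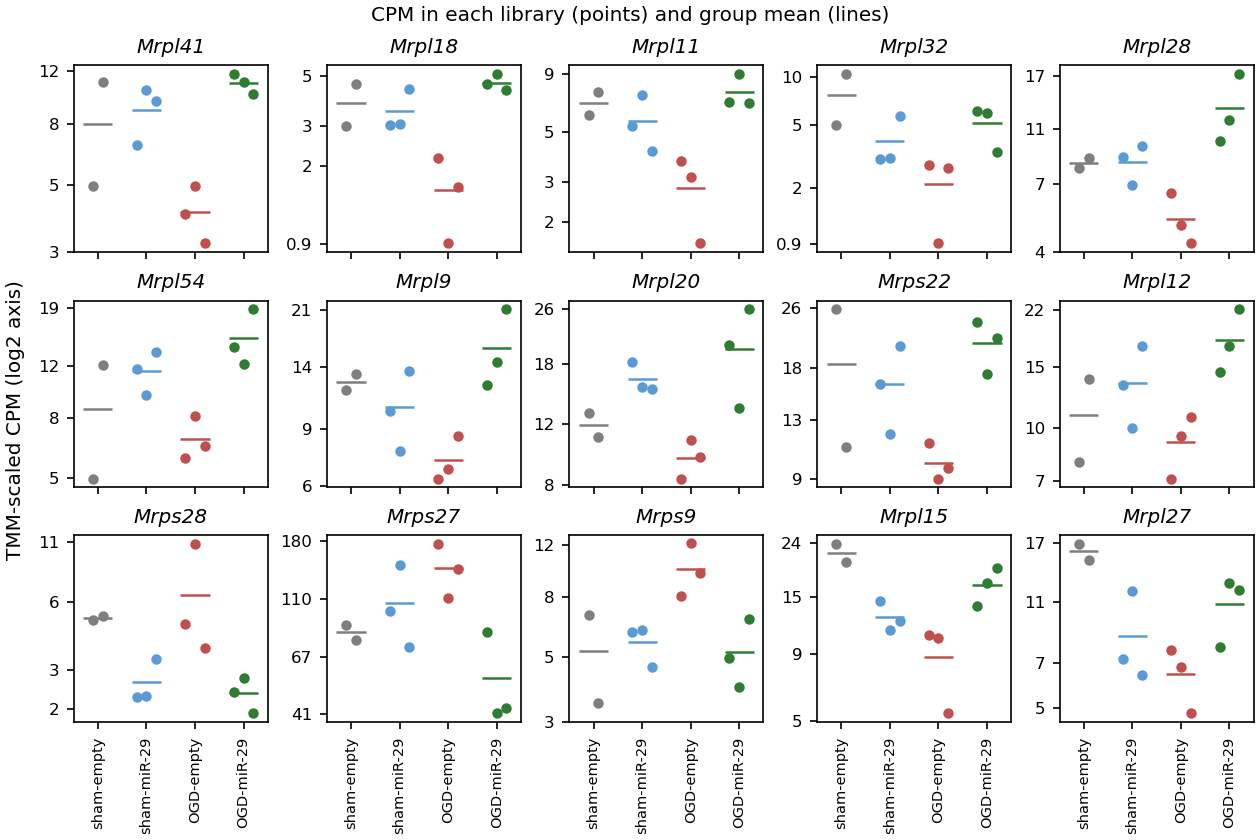
CPM (log2 axis) of 15 members in each library (points) with group means (lines): the 10 largest called rises and the 3 called falls of OGD-miR-29 against OGD-empty, and Mrpl15 and Mrpl27. Mrpl41 runs from 3.22 to 4.97 in OGD-empty and from 10.1 to 11.8 in OGD-miR-29.

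Of 15 members listed for their roles, 4 were called higher (26.7%, near the 28.8% called of all members): Mrpl11, Mrpl12, Mrpl41 and Mrps18a. Mrps12, which shapes the decoding centre, had a log2 fold change of 0.88 ± 0.42 (adjusted p = 0.101, edgeR), and Mrps7, an assembly protein of the small-subunit head, of 0.51 ± 0.23 (adjusted p = 0.0875). Mrpl44, which resembles an RNase III, was at 0.76 ± 0.39 and Mrps5 at 0.49 ± 0.29, both without overlap between the groups and both uncalled. The 3 Mrps18 paralogs were at 0.91 ± 0.28 (Mrps18a, called), 0.34 ± 0.34 (Mrps18b) and 1.12 ± 0.53 (Mrps18c), the last carried by OGD-miR-29 replicate 3 at 11.5 CPM against 3.49 and 2.36 in its fellow libraries. Mrpl3 (-0.10 ± 0.28), Mrps2 (0.16 ± 0.43), Mrps30 (0.19 ± 0.36) and Mrps36 (0.39 ± 0.42) were within 1 SE of 0, and their sign changed with the processing.

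Fold changes of the members went with gene length. The Spearman correlation between span and log2 fold change (OGD-miR-29 minus OGD-empty) was -0.50 across the 66 members and -0.58 across all 11925 genes, and genes in the same libraries are not independent. Of the 22 members under 5 kb, 11 were higher and 0 lower (median 0.78), where 35.6% of 2322 genes of that size were higher (median 0.54). Of the 21 between 5 and 10 kb, 2 were higher (median 0.62), where 31.3% of genes were (median 0.49). Between 10 and 20 kb 3 of 12 members were higher (median 0.50), where 22.1% of genes were (median 0.32). The 4 members of 20 to 50 kb had no call (median 0.33), where 11.3% of genes were higher and 12.8% lower (median -0.01), and of the 7 longer ones 3 were lower (median -0.57), where 48.8% of genes were (median -0.75). In each of these 5 size classes the members' median lay above that of all genes by 0.13 to 0.35.

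**Figure D4:**
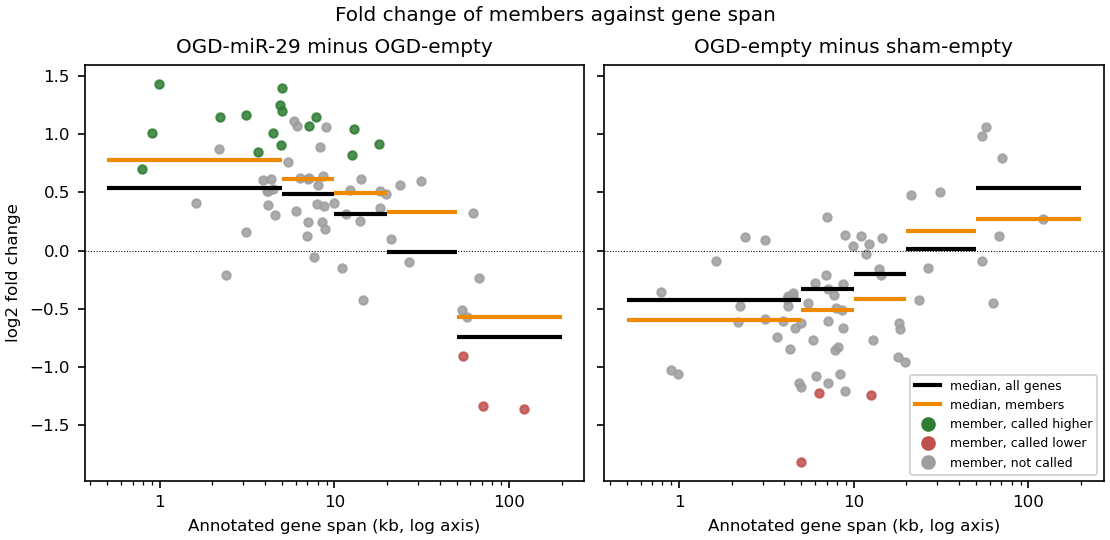
Log2 fold change of each member (points, coloured by edgeR call) against annotated gene span (log axis), for OGD-miR-29 minus OGD-empty (left) and OGD-empty minus sham-empty (right), with medians by size class for members and all genes (bars). On the left the members' bars fall from 0.78 to -0.57 and lie above those of all genes; on the right they run from -0.60 to 0.28.

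Removing the span trend from each library left fewer calls. With the trend removed and the replicate number as a block, 5 members were higher and 3 lower, where 12.8% and 11.7% of 11925 genes were, and the members' median was 0.18 against 0.04. Mrpl41 (0.93 ± 0.29, adjusted p = 0.0175), Mrps22 (0.79 ± 0.23, adjusted p = 0.0114), Mrpl9 (0.72 ± 0.24, adjusted p = 0.0267) and Mrpl20 (0.68 ± 0.24, adjusted p = 0.0377) remained called higher in this edgeR fit, and Mrps27 (-0.94 ± 0.22, adjusted p = 0.00283) lower. Mrpl48, a 62.6 kb gene with 0.32 ± 0.21 in the first fit, became called higher at 0.69 ± 0.21. Mrps34 (-0.74 ± 0.20) and Mrps25 (-0.68 ± 0.21), near -0.21 and -0.43 before, became called lower. Rab6a held 5.48 times the counts of Mrpl48, Mapk8ip3 1.99 times those of Mrps34 and Nr2c2 1.37 times those of Mrps25. With the counts as deposited these neighbours were at 0.09, 0.21 and -0.83, and reads of the pairs may not be separable. Of the 19 first calls 5 were thus shared with this fit, and the sign of all 19 held. With a trend on exonic length in place of span, and the same block, 15 members were higher and 4 lower, and of the 14 called members named for this comparison 10 were still called.

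**Figure D5:**
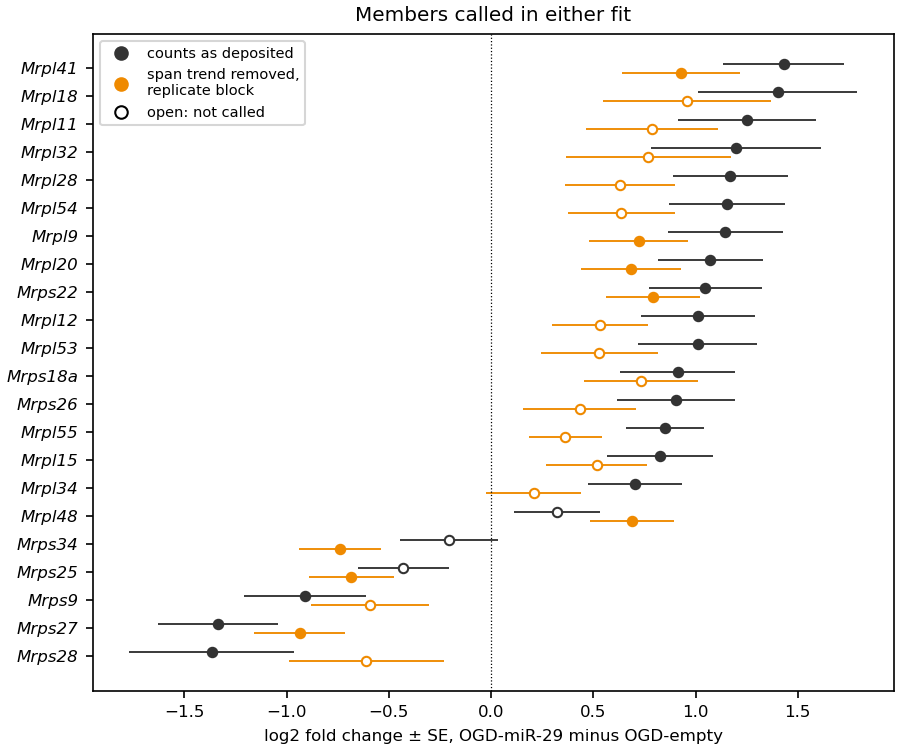
Log2 fold change ± SE (OGD-miR-29 minus OGD-empty) of the members called in either fit, with the counts as deposited (dark) and with the span trend removed and a replicate block (orange); open points were not called. The first-fit falls and rises all move toward 0, and Mrpl48, Mrps34 and Mrps25 move to the called side.

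Most members had a neighbouring gene with many reads, and whether its reads enter their counts was not tested. Of the 66 members 42 (63.6%) had a gene inside them or within 10 kb downstream, on either strand, with at least 0.5 of their own count, against 55.0% of protein-coding genes. Of the 16 members called higher 11 had such a neighbour, and in 8 of these the largest neighbour was called higher too, where 17.2% of all genes were. In the other 3 the largest neighbour had a positive value but was not called. These were Dph7 beside Mrpl41 (0.58, adjusted p = 0.13, edgeR), Wbp1 beside Mrpl53 (0.78, adjusted p = 0.0603) and 4930473A02Rik beside Mrps26 (0.19, adjusted p = 0.571). The 24 members without such a neighbour had a median log2 fold change of 0.50, with 5 called higher and 2 lower, and the 42 with one had 0.58, with 11 higher and 1 lower. In 7 members no other gene was annotated inside them or within 10 kb downstream, and genes upstream were not counted. Their median was 0.62, and Mrpl11, Mrpl28 and Mrpl32 were called higher while Mrpl1, Mrps5, Mrps23 and Mrps31 were not called. A fit of only genes with no neighbour in the window called the same number higher, 3 of 7.

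Fold changes of members with and without a miR-29 seed match or a promoter motif overlapped widely. The 10 carriers of a seed match had a median of 0.50 after OGD (miR-29 minus empty virus), with 2 called higher (Mrpl11 and Mrpl32) and 0 lower, and the other 56 a median of 0.55, with 14 higher and 3 lower. In sham cultures the medians were -0.01 and -0.11. Members with the NRF1 letters had a median of 0.76 (11 genes, 4 higher) against 0.49 without them (47 genes, 10 higher). For the YY1 letters the medians were 0.35 with and 0.55 without, and for the ETS letters 0.63 and 0.51. The 20 members with a divergent start were at 0.52 and the other 46 at 0.54. None of these differences was tested.

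OGD under the empty virus gave 3 lower members (4.55%), a share near that of all genes. Against sham-empty (n = 2), 0 members were called higher, and 5.09% of genes were called (1.48% higher and 3.61% lower). The median was -0.45 against 0.02 over all genes, with 51 members negative, and CPM did not overlap between the groups for 25 members lower and 4 higher, against 21.6% and 22% of all genes. Mrpl32 was at 4.97 and 10.4 CPM in sham-empty and fell by 1.82 on the log2 scale (SE 0.50, adjusted p = 0.04, edgeR). Its reads were few, with counts of 5 and 18 in sham-empty and of 18, 2 and 5 in OGD-empty. Mrpl15 (chr1:4773206-4785739), counterpart of a bacterial large-subunit protein, was at 23.9 and 20.3 CPM in sham-empty and at 10.7, 10.4 and 5.36 in OGD-empty, a log2 fold change of -1.24 ± 0.31 (adjusted p = 0.0273, edgeR). Mrpl27 (chr11:94653767-94660089), whose bacterial counterpart reaches toward the peptidyl transferase centre, was at 16.9 and 15.0 CPM against 7.72, 6.77 and 4.82 (-1.22 ± 0.35, adjusted p = 0.0465, edgeR). The neighbour Eme1, with 1.91 times the counts of Mrpl27, was at -0.68 and not called (adjusted p = 0.147, edgeR). Reads of Mrpl27 and Eme1 may not be separable in these counts.

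Mrpl32, Mrpl15 and Mrpl27 each had both sham-empty libraries above every OGD-empty library. The calls depend on the pair of sham-empty libraries, since 0 members were called without sham-empty replicate 1 or without replicate 2. With the replicate block, which pairs cultures by dissection day, Mrpl27 was lost (adjusted p = 0.0507) and Mrpl55 and Mrps17 were gained, for 4 lower calls (5.61% of all genes). With the span trend removed 0 were called (2.74% of all genes), 7 had an unadjusted p under 0.05, and the median was -0.19. In the authors' deposited table for this comparison 0 of 66 members and 6 of 12145 rows had a false discovery rate under 0.05, and the members' median log2 fold change was -0.52. That table comes from a likelihood ratio test, not the quasi-likelihood test used here. Whether sham-empty replicate 3 entered it was not checked, so the counts of calls are not directly comparable. The same table gave -1.79 for Mrpl32 (false discovery rate 0.208) and -1.06 for Mrpl15. Of the members 15 were positive, none of them called, and the 3 with the highest values, all over 50 kb, were Mrpl1 at 1.07, Mrps9 at 0.99 and Mrps27 at 0.79. The Spearman correlation between span and this log2 fold change was 0.35 across the 66 members and 0.53 across all 11925 genes. Single members picked after their values were seen include Mrpl48 (62.6 kb) at -0.45 and Mrps6 (54.0 kb) at -0.09. Among shorter ones, Mrpl42 (21.1 kb) was at 0.48 and Mrpl38 (7.05 kb) at 0.29. The sign of Mrpl38 is not settled, since its sham-empty counts were 5 and 2. Its mean CPM was 3.07 in sham-empty and 2.80 in OGD-empty, and the authors' table gave -0.54.

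OGD under the miR-29 virus gave no called member. In edgeR's test 0 of 66 passed, where 0.0165% of all genes did, and DESeq2 and limma-voom also called 0. At an unadjusted p under 0.05 there were 4 in edgeR, 1 in DESeq2 and 3 in limma-voom. The median was 0.29, with that over all genes near 0, and 52 members were positive. The smallest p belonged to Mrps27 (-0.91 ± 0.29), Mrpl24 (0.70 ± 0.30), Mrps6 (-0.50 ± 0.22), Mrpl28 (0.57 ± 0.27) and Mrpl9 (0.54 ± 0.26). Mrpl24 was at 4.93, 5.38 and 6.94 CPM in sham-miR-29 and at 8.45, 10.6 and 10.1 in OGD-miR-29. Its groups did not overlap, as was so for 6 members higher and 0 lower (8.19% and 8.69% of all genes), and its adjusted p was 0.506.

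Without OGD no member was called between the viruses. In sham cultures 0 of 66 members were called by edgeR (0% of all genes), DESeq2 or limma-voom, with 4, 2 and 4 at an unadjusted p under 0.05. The median was -0.10, with that over all genes near 0, and 43 members were negative. Mrpl15 (-0.80 ± 0.30), Mrpl27 (-0.92 ± 0.35), Mrpl32 (-1.0 ± 0.47), Mrps5 (-0.77 ± 0.36) and Mrps36 (-1.11 ± 0.58) had the smallest p. CPM did not overlap for 1 member higher and 7 lower, against 10.6% and 11.9% of all genes. Mrpl15 was at 14.4, 11.1 and 12.1 CPM in sham-miR-29, below both sham-empty libraries, and its adjusted p was 1. The sham-empty group thus held the highest levels of Mrpl15 and Mrpl27 of the 4 groups, and the 3 contrasts that use it (OGD under the empty virus, the viruses in sham, and the interaction) share its 2 libraries. In the authors' deposited table of OGD-miR-29 against sham-empty, 0 of 66 members and 2 of 12145 rows had a false discovery rate under 0.05, and the members' median log2 fold change was 0.06. The same limits on test and libraries apply to this table.

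The effect of OGD differed between the viruses for a share of members near that of all genes, and these calls rest on 2 sham-empty libraries. The interaction, the log2 effect of OGD under the miR-29 virus minus that under the empty virus, was positive for 53 of 66 members with a median of 0.73 (-0.03 over all genes). It was called for 4 members higher and 1 lower, where 8.38% of genes were called (4.72% higher and 3.66% lower). Mrpl32 had 2.20 ± 0.63, Mrpl15 1.62 ± 0.40, Mrpl27 1.55 ± 0.46 and Mrpl55, counterpart of bacterial L31, 1.02 ± 0.29, with adjusted p from 0.0187 to 0.0398 in edgeR. For Mrps27 it was -1.70 ± 0.45 (adjusted p = 0.0317). Mrpl55 was at 59.7 and 54.4 CPM in sham-empty, 49.3, 43.4 and 58.9 in sham-miR-29, 58.6, 66.6 and 58.7 in OGD-miR-29 but 37.7, 30.3 and 33.2 in OGD-empty. Only OGD-empty stood apart for this gene, below all other libraries. The neighbour 2310033P09Rik, on the same strand, held 0.958 times the counts of Mrpl55. With miR-29 against empty virus after OGD it was at 0.88 against 0.85 for Mrpl55. For OGD under the empty virus it was at -0.79 against -0.74. Reads of the pair may not be separable in these counts. With the replicate block 8 members were called (15.4% of all genes), the added ones being Mrpl9, Mrps18c and Mrps22, and with 1 library left out 0 to 6. With the span trend removed and the block, Mrpl15 (1.25 ± 0.39), Mrps27 (-1.39 ± 0.35) and Mrps34 (-1.04 ± 0.33) were called, where 8.07% of all genes were.

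Other genes of mitochondrial translation had mixed calls after OGD (miR-29 minus empty virus). Over all genes 17.2% were called higher and 19.9% lower in this contrast. With the span trend removed and the block these shares were 12.8% and 11.7%. Of 5 ribosomal proteins under other symbols (Dap3, Chchd1, Aurkaip1, Ptcd3 and Gadd45gip1), 4 were higher with miR-29 and 0 lower (median 0.81). Aurkaip1 was at 3.86, 4.52 and 4.29 CPM in OGD-empty and at 13.0, 13.4 and 11.1 in OGD-miR-29 (1.60 ± 0.28, adjusted p = 0.000603, edgeR), and stayed called with the span trend removed and the block (1.11, adjusted p = 0.00371). Gadd45gip1 had 0.81 ± 0.19 and was not called in that fit (adjusted p = 0.178), and its neighbour Calr held 1.20 times its counts. Of 9 translation factors 0 were called (median -0.20), with 1 at an unadjusted p under 0.05. With the span trend removed and the block, Tufm, the elongation factor that brings aminoacyl-tRNA to the ribosome, was called lower (-0.88, adjusted p = 0.0168, edgeR), from -0.41 in the first fit. Taco1, a translational activator of a cytochrome oxidase subunit, was at 0.83 ± 0.38 and Guf1, a ribosome-binding GTPase, at -0.53 ± 0.27.

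Of 8 ribosome assembly genes tested, 3 were higher (median 0.46), where 17.2% of all genes were. Among them were the GTPase Mtg1 (0.83 ± 0.25, adjusted p = 0.0136, edgeR) and Mpv17l2 (0.62 ± 0.20, adjusted p = 0.0185). Neither was called with the span trend removed and the block, where Malsu1, an assembly factor of the large subunit, was called lower (-0.94, adjusted p = 0.0278, edgeR) and 0 assembly genes higher. Mitochondrial tRNA synthetases were divided, with 3 of 12 higher and 1 lower (median -0.05), where 17.2% and 19.9% of all genes were. Hars2, for histidine, was at 16.8, 17.2 and 12.3 CPM in OGD-empty against 40.6, 28.8 and 66.3 in OGD-miR-29 (1.51 ± 0.27, adjusted p = 0.000778, edgeR). Yars2, for tyrosine, was at 25.2, 15.8 and 21.4 CPM against 14.7, 8.27 and 11.1 (-0.86 ± 0.25, adjusted p = 0.0109), without overlap. Both calls held with the span trend removed and the block, at 1.11 and -1.25, and Zmat2 and Dnm1l are neighbours with 0.869 and 1.88 times their counts. Of 5 genes of mitochondrial transcription and genome maintenance, Lrpprc (85543 bp), which stabilises mitochondrial mRNA, was lower (-0.58 ± 0.22, adjusted p = 0.0386) and at -0.04 with the trend removed and the block. Its partner Slirp was at 0.64 ± 0.30 (adjusted p = 0.0905).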

How the data were processed

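RNA was sequenced in 4 groups of 3 cultures. The authors deposited read counts per gene symbol, not normalized, and comparison tables holding, per the file headers, per gene an average log2 CPM and a log2 fold change with its likelihood ratio, false discovery rate and p-value. The submitters' processing notes name STAR 2.5.0a, featureCounts 1.4.3-p1, edgeR and mm10, without roles. The strand setting, annotation and counting region are not given in the sources used here. Of the per-sample columns 0 were unmapped, and 1 did not hold counts and was left out, so 11 libraries were used where the design had set 12.

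Genes were tested with edgeR 4.0.16 (R 4.3.3; quasi-likelihood, robust, TMM, filterByExpr, library sizes summed after the filter) in 1 fit of 4 group means without a block. All 66 members passed the filter, among 12119 of 12145 genes. A gene was called at a Benjamini-Hochberg adjusted p under 0.05 over all genes tested. The SE was taken from F (fold change over root F, log2). The 5 contrasts share groups, and so share libraries. Spans are from GENCODE M21 (GRCm38); the span trend is a natural spline (4 degrees of freedom) of log2 deviation on log2 span per library, entered as offsets. The scripts were tested on simulated data. Named members are the 10 largest calls per direction without overlap between groups, the 5 smallest p where fewer than 5 were called, and a list chosen for role; in pathway lists, the 2 smallest p. Members and lists were chosen with earlier results of these data known. Mrps25, Mrps34, Mrpl48 and genes named beside a count of 7 or fewer or as range ends were named after their values were seen. DESeq2 1.42.0 and limma-voom 3.58.1 were alternatives.

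Replicate numbers mark dissection days, per the series' design text. Deviations from group means correlated at -0.09 to 0.23 in 15 same-numbered pairs (mean 0.04) and at -0.24 to 0.20 in 30 other pairs.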

Additional observations from a re-analysis of the deposited data

Results flagged for a closer look

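For 5 of 66 members (7.58%, against 8.38% of all genes) the effect of OGD differed between the viruses in edgeR's interaction test. The log2 difference was 2.20 for Mrpl32, 1.62 for Mrpl15, 1.55 for Mrpl27 and 1.02 for Mrpl55, each with a negative value under the empty virus, called for the first 3 and not for Mrpl55 (adjusted p = 0.0515), and no call under the miR-29 virus. For Mrps27 it was -1.70, with opposite signs under the viruses. Mrpl27, Mrpl55 and Mrps27 have neighbours whose reads may not be separable from theirs, and Mrpl32 had few reads. All 5 interactions rest on 2 sham-empty libraries. The libraries' trend on gene span moved with them, and 1 call (Mrpl15) was left once it was removed without a block.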

How the results depend on the processing

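For OGD-miR-29 against OGD-empty, 8 members were called with the span trend removed, with or without the replicate block (medians 0.20 and 0.18). The median was 0.31 with an exonic length trend and the block and 0.61 at a mean count of at least 20. Among genes with no annotated neighbour inside them or downstream in the window 3 of 7 members were called (median 0.73). Among those with no such neighbour of at least 0.5 of their count 9 of 24 were (median 0.83). Of the 14 called members named for OGD-miR-29 against OGD-empty, 11 stayed called in DESeq2 and all 14 in limma-voom. For OGD under the empty virus, counts of calls were 1 with limma-voom, 0 with the span trend removed with or without the block (medians -0.19 and -0.15), 1 without annotated neighbours (median -0.71) and 0 among only the groups compared (median -0.51, 38 members tested). The median was -0.23 with an exonic length trend and the block, and -0.61 without large neighbours. For OGD under the miR-29 virus the median was 0.12 at a mean count of at least 20, 0.20 with the span trend removed, 0.19 with the block added, 0.44 for both neighbour filters, 0.18 with an exonic trend and block, and 0.23 among only the groups compared. For the virus in sham it was -0.34 and -0.20 under the neighbour filters. The interaction gave 8 calls with the replicate block, 1 with the span trend removed (median 0.30), 3 with trend and block (median 0.35) and 2 without annotated neighbours (median 1.3). Its median was 0.47 with an exonic trend and block and 1.02 without large neighbours. The replicate block changed no other count of member calls by over 1.5 times. The cause of these shifts was not tested.

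With 1 library left out, medians ran from -0.45 to -0.30 (OGD, empty virus), 0.20 to 0.32 (OGD, miR-29 virus), -0.19 to -0.023 (virus, sham), 0.48 to 0.56 (virus, OGD) and 0.52 to 0.89 (interaction), and calls from 0 to 4, 0 to 0, 0 to 0, 16 to 19 and 0 to 6. Signs reversed for uncalled members after OGD (miR-29 minus empty virus). Mrps2 was at -0.32 with the span trend removed, -0.26 with the block added, -0.032 with an exonic trend and block, and from -0.14 (without OGD-empty replicate 2) to 0.36 (without OGD-miR-29 replicate 3) with 1 library left out. Mrps18b was at -0.080 and -0.083, and Mrps30 at -0.18 and -0.19, with the span trend removed and with the block added. Mrps36 was at -0.023 with span trend and block and -0.056 with an exonic trend and block. Mrpl3 was at 0.21 with an exonic trend and block, 0.25 without large neighbours, 0.033 without OGD-empty replicate 2 and 0.087 without OGD-miR-29 replicate 1. Mrpl10 was at 0.035 without OGD-empty replicate 3. The filter on low counts, the scaling and the mitochondrial rows otherwise left counts of calls within 1.5 times. A median of 7 to 36.5 counts per member limits single genes. The exonic trend and the filter on large neighbours were chosen after seeing the data.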
